A study of Mus musculus with 12 samples.

Results

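The genes of voltage-gated calcium and sodium channels were described in mouse striatum after repeated morphine with or without sodium butyrate. They were the 35 genes, of 19935 with an array probe set of a single gene symbol, whose symbol begins with Cacna, Cacnb or Cacng, or with Scn and a digit. Of these, 24 are named as calcium channel subunit genes, 7 of them gamma genes, and 11 as sodium channel subunit genes. The choice went by symbol alone, and the epithelial sodium channel genes (Scnn) were left out. In the comparisons with saline and between the morphine groups, 0 of the 35 genes passed an adjusted p under 0.05. The farthest from saline, the gamma gene Cacng5, averaged 1.21-fold in the morphine arrays.

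Voltage-gated calcium channels open when a neuron depolarises, and the calcium that enters triggers transmitter release, firing and gene transcription. The pore is the alpha1 subunit, a cytoplasmic beta subunit and an extracellular alpha2delta subunit carry it to the membrane and tune its gating, and most gamma proteins of the brain are better known as partners of AMPA-type glutamate receptors (TARPs). Voltage-gated sodium channels start the action potential, with a pore-forming alpha subunit and small beta subunits that modify its gating and anchoring. In the striatum these channels set when medium spiny neurons fire, and opioid receptors are known to inhibit calcium channels at nerve terminals.

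Striatal tissue came from male Swiss-Albino mice aged 2 months, and each array (Affymetrix Mouse Gene 1.0 ST) was given RNA combined from 4 animals. Butyrate-morphine mice (3 arrays) received 6 induction injections of morphine at 20 mg/kg, each preceded by sodium butyrate, an inhibitor of histone deacetylases, at 300 mg/kg. Morphine mice (3 arrays) received saline in place of butyrate, and saline mice (6 arrays) received vehicle only. The mice were challenged 7 days after induction and killed for RNA 1 h later. The challenge was morphine in both morphine groups. In the saline group it was saline per the source names but morphine per the protocol text, so a difference from saline holds either the acute and the repeated injections or the repeated ones alone. The labels do not say whether the pools within a group were independent cohorts, so the tests speak of variation from pool to pool.

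Each deposited number is a difference from a baseline, on a scale taken as log2, and carries no level of expression. Saline arrays 1 and 2, 3 and 4, and 5 and 6 are mirror images that sum to 0, so the 6 saline arrays hold 3 independent values a gene and the saline mean is 0. Any difference between the pairs is absent from these values. The saline range and SD can therefore be narrower than those of 6 unpaired pools. A coarse class of the original values was read from the rounding of the decimals. All probe sets of 22 channel genes fell in the class of 8 or more on the log2 scale, against 23.9% of all rows. The 13 dimmer genes were Cacna1d, Cacna1f, Cacna1g, Cacna1h, Cacna1s, Cacna2d4, Cacnb2, Cacng1, Cacng5, Scn7a, Scn9a, Scn10a and Scn11a, among them genes known from retina, skeletal muscle and sensory neurons. By the same reading, 12 of 13 markers of striatal projection neurons were in the brighter class, Drd1, Drd2, Penk and Ppp1r1b included, as were 0 of 10 choroid plexus markers. In bulk tissue, fewer cells of a type and less RNA per cell cannot be told apart.

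Promoter sequences are shown for Cacnb1, which lay below every saline array in all 6 arrays of the morphine groups, and for Scn4b, which differed most between those groups. The windows run from 250 bases before to 50 after the annotated start, from RefSeq on GRCm38.p6, and capitals mark the motifs searched.
Cacnb1 promoter, chr11:98022578-98022877, minus strand: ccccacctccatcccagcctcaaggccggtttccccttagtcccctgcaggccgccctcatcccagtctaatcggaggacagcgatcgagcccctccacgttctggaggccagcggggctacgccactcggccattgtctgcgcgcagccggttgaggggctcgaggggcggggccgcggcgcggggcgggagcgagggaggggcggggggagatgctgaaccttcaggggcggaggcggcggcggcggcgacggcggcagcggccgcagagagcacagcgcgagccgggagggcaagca
Scn4b promoter, chr9:45138374-45138673, plus strand: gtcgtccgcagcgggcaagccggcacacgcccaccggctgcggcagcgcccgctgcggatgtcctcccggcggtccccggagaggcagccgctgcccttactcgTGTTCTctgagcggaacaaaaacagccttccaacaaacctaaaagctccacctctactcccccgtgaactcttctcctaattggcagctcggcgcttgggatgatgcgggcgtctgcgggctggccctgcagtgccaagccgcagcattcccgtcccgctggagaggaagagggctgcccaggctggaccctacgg
On both strands the search was for the half-site of the cyclic AMP response element (TGACG), the half-site of the glucocorticoid response element (AGAACA) and the Nr4a binding motif (AAAGGTCA). These letters are in 20.8%, 19.0% and 1.51% of all 32851 promoter windows in that order. They are in 6, 7 and 1 of the 37 windows of the 27 channel genes in the table. The Scn4b window holds 1 glucocorticoid half-site, in its reverse complement TGTTCT, and the Cacnb1 window holds 0 matches. Cacnb1 has 2 starts in the table, of which the one listed first is printed.

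**Figure D1:**
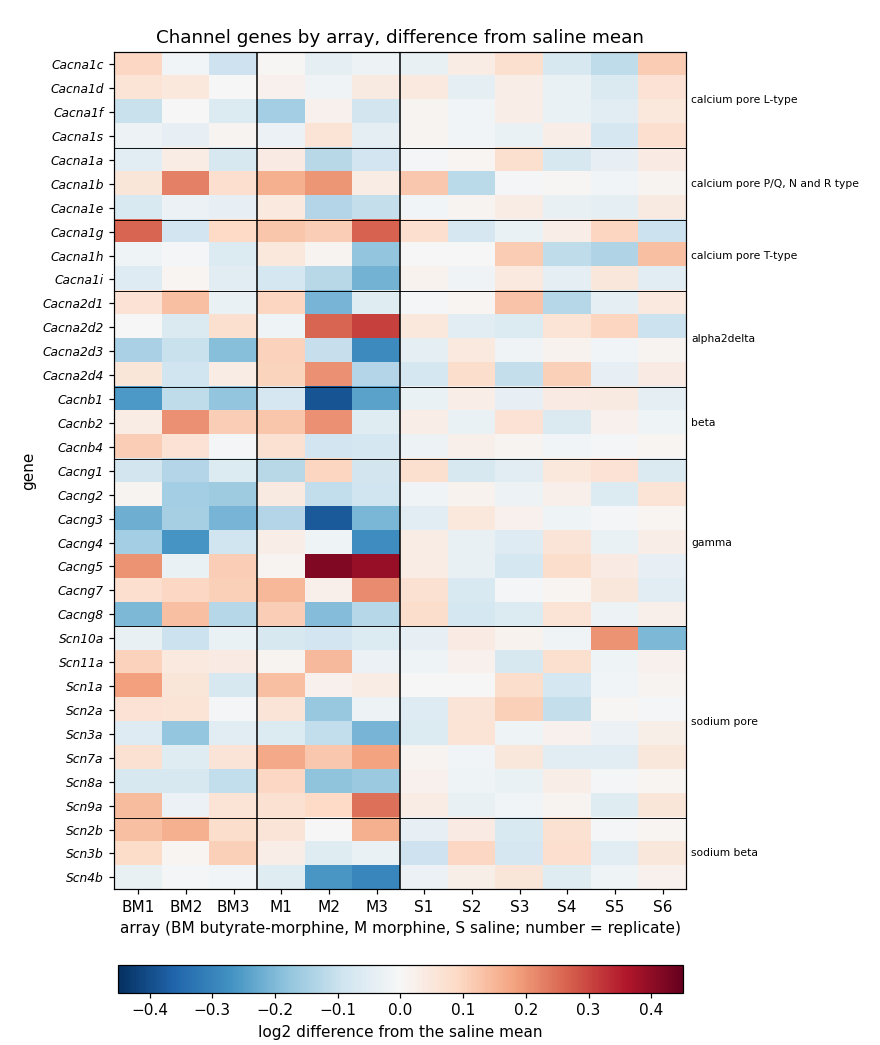
Log2 difference from the saline mean (colour) of each channel gene (rows, by subunit class) in each array (columns: BM butyrate-morphine, M morphine, S saline, with replicate numbers). Cacng3 and Cacnb1 are blue in all 6 BM and M arrays, and the highest values, Cacng5 at 0.415 and 0.39, stand in M2 and M3.

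Among the calcium pore genes, the N-type gene Cacna1b, whose channel opioid receptors inhibit at nerve terminals, was above the saline mean in all 6 arrays of the morphine groups. It read 0.053, 0.225 and 0.075 in butyrate-morphine arrays 1 to 3 and 0.16, 0.20 and 0.034 in morphine arrays 1 to 3, against -0.12 to 0.12 in saline arrays. The groups overlapped, and saline array 1 was above 3 of these arrays. The averages were 1.08-fold of saline with butyrate-morphine and 1.09-fold with morphine (log2 0.12 ± 0.094 and 0.13 ± 0.085, SD, n = 3 each, limma adjusted p = 0.489 and 0.466). The genes of the P/Q-type and R-type pores, Cacna1a and Cacna1e, averaged -0.029 and -0.044 in butyrate-morphine arrays and -0.058 and -0.065 in morphine arrays.

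The L-type pore genes Cacna1c and Cacna1d, whose channels link synaptic activity to transcription in medium spiny neurons, were close to saline. Cacna1c was at 0.092, -0.011 and -0.093 in butyrate-morphine arrays and 0.006, -0.040 and -0.024 in morphine arrays, against -0.12 to 0.12 in saline arrays. Its 95% interval against saline ran from 0.91-fold to 1.09-fold with butyrate-morphine and from 0.90-fold to 1.08-fold with morphine. Cacna1d averaged 1.03-fold with butyrate-morphine and 1.01-fold with morphine. The other members of this class are known from the retina (Cacna1f) and skeletal muscle (Cacna1s), and both are in the dimmer class. Cacna1f had the class's farthest average from saline, at 0.951-fold with morphine (adjusted p = 0.653). It was at -0.10, -0.003 and -0.063 in butyrate-morphine arrays and at -0.15, 0.018 and -0.081 in morphine arrays, against -0.047 to 0.047 in saline, which both overlapped.

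The T-type pore genes, whose channels open near rest and drive burst firing, differed in direction. Cacna1i was at -0.058, 0.009 and -0.046 in butyrate-morphine arrays and at -0.078, -0.125 and -0.21 in morphine arrays, against -0.052 to 0.052 in saline. All morphine arrays were below all saline arrays and below all butyrate-morphine arrays. The morphine average was 0.909-fold of saline (unadjusted p = 0.0105, limma adjusted p = 0.229). Cacna1g, prominent in thalamic relay neurons, was at 0.26, -0.087 and 0.088 with butyrate-morphine and at 0.13, 0.11 and 0.26 with morphine, against -0.095 to 0.095 in saline. Its morphine arrays lay above all saline arrays, at 1.12-fold (adjusted p = 0.436), and its butyrate-morphine arrays overlapped both. Cacna1h was at 0.979-fold and 0.974-fold of saline with butyrate-morphine and morphine.

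Of the alpha2delta genes, Cacna2d1 and Cacna2d2 encode the binding sites of gabapentin-type drugs. Cacna2d2 was at 0.001, -0.065 and 0.072 in butyrate-morphine arrays and at -0.020, 0.26 and 0.31 in morphine arrays, against -0.095 to 0.095 in saline. Morphine arrays 2 and 3 were thus high and array 1 was not. The morphine average was 1.14-fold of saline (adjusted p = 0.359) and the butyrate-morphine average 0.883-fold of morphine (95% interval 0.774 to 1.01, adjusted p = 0.949). Cacna2d3 was at -0.15, -0.10 and -0.19 in butyrate-morphine arrays, against -0.044 to 0.044 in saline, so these groups did not overlap (0.904-fold, adjusted p = 0.435). In morphine arrays Cacna2d3 was at 0.10, -0.105 and -0.29, on both sides of saline.

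Cacna2d1 is read by 2 probe sets, which differed by 0.15 and -0.040 between butyrate-morphine and saline arrays and by -0.052 and -0.059 between morphine and saline arrays. Their mean was at 0.066, 0.14 and -0.031 in butyrate-morphine arrays and at 0.097, -0.21 and -0.055 in morphine arrays, against -0.13 to 0.13 in saline. No group stood apart from another. Cacna2d4 averaged -0.001 with butyrate-morphine and 0.058 with morphine.

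Among the beta subunit genes Cacnb1 was the lowest. It was at -0.26, -0.12 and -0.18 in butyrate-morphine arrays and at -0.077, -0.39 and -0.24 in morphine arrays, against -0.041 to 0.041 in saline arrays. All 6 arrays of the morphine groups were below all saline arrays, and the morphine groups overlapped each other. The averages were 0.88-fold with butyrate-morphine (-0.185 ± 0.072, SD, n = 3, unadjusted p = 0.0136, limma adjusted p = 0.256) and 0.849-fold with morphine (-0.24 ± 0.16, unadjusted p = 0.00318, adjusted p = 0.141). Cacnb2 was at 0.034, 0.21 and 0.11 with butyrate-morphine and 0.12, 0.205 and -0.056 with morphine, against -0.066 to 0.066 in saline, and both groups overlapped it. Cacnb4, mutated in the lethargic mouse, was at 0.11, 0.065 and -0.005 in butyrate-morphine arrays and 0.070, -0.085 and -0.080 in morphine arrays, against -0.023 to 0.023 in saline (butyrate-morphine over morphine, ratio of the averages 1.06, 95% interval 0.98 to 1.15).

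The gamma genes held the largest averages in either direction. Cacng3, a TARP of forebrain AMPA receptors, was at -0.22, -0.15 and -0.21 in butyrate-morphine arrays and at -0.13, -0.38 and -0.20 in morphine arrays, against -0.047 to 0.047 in saline arrays. All 6 were below all saline arrays. It averaged 0.875-fold of saline with butyrate-morphine (-0.19 ± 0.038, SD, n = 3) and 0.848-fold with morphine (-0.24 ± 0.13). These had the lowest p-values of the 35 genes in both comparisons, with limma adjusted p = 0.162 and 0.0793 and unadjusted p = 0.004 and 0.000926.

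Cacng5, which encodes an atypical TARP, was at 0.20, -0.030 and 0.11 in butyrate-morphine arrays and at 0.011, 0.415 and 0.39 in morphine arrays, against -0.078 to 0.078 in saline. Morphine arrays 2 and 3 were high, and morphine array 1 was within the saline range. The morphine average of 1.21-fold had a 95% interval of 1.06-fold to 1.38-fold and an adjusted p of 0.213. Cacng7, the other atypical TARP gene, was above the saline mean in all 6 arrays of the morphine groups. It was at 0.076, 0.094 and 0.11 with butyrate-morphine and at 0.15, 0.023 and 0.21 with morphine, against -0.069 to 0.069 in saline (1.07-fold and 1.09-fold, adjusted p = 0.518 and 0.34). The butyrate-morphine arrays were all above saline, and the morphine arrays overlapped it.

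Cacng4 was at -0.15, -0.27 and -0.090 in butyrate-morphine arrays, below all saline arrays (-0.057 to 0.057), and at 0.031, -0.021 and -0.28 in morphine arrays, which overlapped saline. Its averages were 0.889-fold and 0.94-fold of saline (adjusted p = 0.342 and 0.725). The TARP genes Cacng2 (stargazin) and Cacng8 and the skeletal muscle gene Cacng1 were between 0.933-fold and 0.957-fold of saline with butyrate-morphine and between 0.952-fold and 0.974-fold with morphine.

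**Figure D2:**
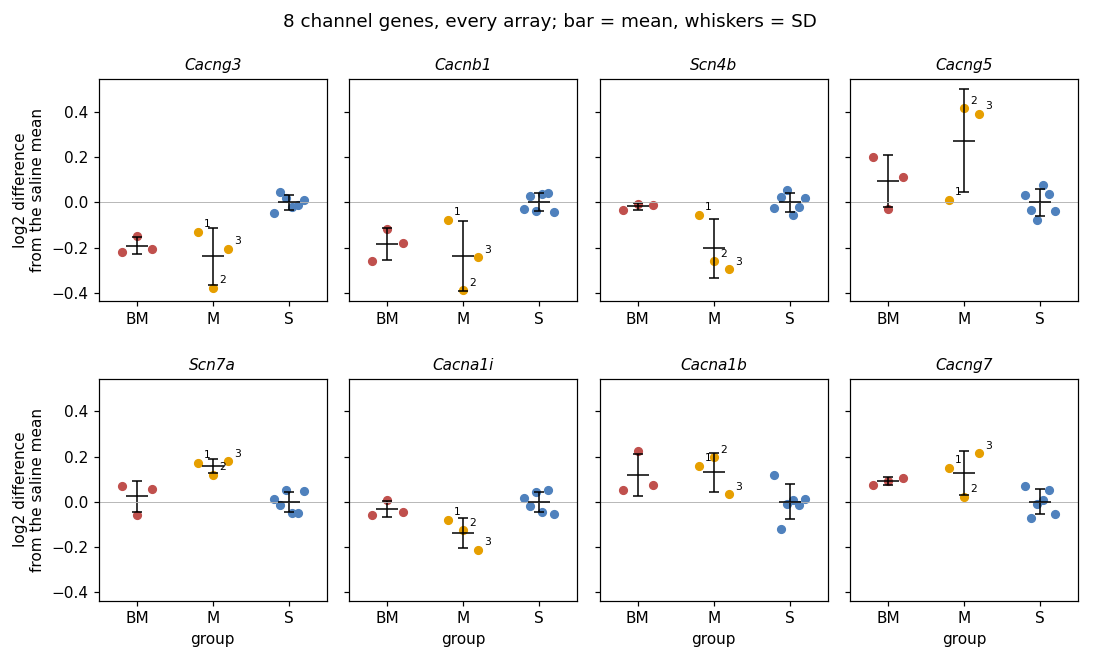
Log2 difference from the saline mean of 8 channel genes in every array, by group (BM butyrate-morphine, M morphine with replicate numbers, S saline), with the mean (bar) and SD (whiskers). Scn4b is at -0.26 and -0.295 in M2 and M3 but between -0.034 and -0.007 in the BM arrays.

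Of the sodium pore genes, those of the main brain channels were close to saline on average. Scn1a (the channel of fast-spiking interneurons), Scn2a and Scn8a (the channels of axon initial segments) averaged 1.04-fold, 1.03-fold and 0.943-fold of saline with butyrate-morphine and 1.04-fold, 0.969-fold and 0.943-fold with morphine. Scn8a was at -0.073, -0.072 and -0.11 in butyrate-morphine arrays, below all saline arrays (-0.031 to 0.031), and at 0.093, -0.18 and -0.17 in morphine arrays. With morphine, array 1 was thus above saline and arrays 2 and 3 below it. Scn2a is read by 14 probe sets. Between butyrate-morphine and saline 9 of them were higher and 5 lower (-0.14 to 0.16), and between morphine and saline 3 were higher and 11 lower (-0.11 to 0.031), with adjusted p-values of 0.254 or more.

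Scn3a, which is most abundant before birth, was at -0.058, -0.17 and -0.052 with butyrate-morphine and at -0.060, -0.11 and -0.21 with morphine, against -0.060 to 0.060 in saline. The averages were 0.937-fold and 0.916-fold (adjusted p = 0.484 and 0.33). Scn3a also shares 3 probe sets with other members, which were kept out of all of them. The probe set shared with Scn1a was at -0.17 with butyrate-morphine and -0.155 with morphine (adjusted p = 0.315 and 0.391). The probe set shared with Scn9a was at 0.058 with butyrate-morphine and -0.082 with morphine. The probe set shared with Scn2a and Scn9a was at 0.035 with butyrate-morphine and 0.064 with morphine, so the 3 did not share a direction.

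Scn7a encodes the sodium-sensing channel of circumventricular organs and of glia in mice. It was at 0.069, -0.056 and 0.059 in butyrate-morphine arrays and at 0.17, 0.12 and 0.18 in morphine arrays, against -0.051 to 0.051 in saline. All morphine arrays were above all arrays of the other groups. The morphine average was 1.12-fold of saline (0.16 ± 0.032, SD, n = 3, unadjusted p = 0.00508, limma adjusted p = 0.173), and butyrate-morphine was at 0.911-fold of morphine (95% interval 0.841 to 0.987, adjusted p = 0.928). Scn9a, known from sensory neurons, was at 0.14, -0.025 and 0.063 with butyrate-morphine and 0.067, 0.091 and 0.25 with morphine, against -0.053 to 0.053 in saline (morphine 1.10-fold, adjusted p = 0.349). Its sensory neuron relatives Scn10a and Scn11a averaged 0.964-fold and 1.04-fold with butyrate-morphine and 0.951-fold and 1.03-fold with morphine.

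Of the sodium beta genes, Scn4b is the one known for its strong expression in medium spiny neurons, where its product supports resurgent sodium current and fast repeated firing. It was at -0.034, -0.007 and -0.011 in butyrate-morphine arrays and at -0.054, -0.26 and -0.295 in morphine arrays, against -0.056 to 0.056 in saline arrays. The butyrate-morphine arrays lay within the saline range. Morphine arrays 2 and 3 were far below it, and morphine array 1 was at its lower end. The morphine average was 0.868-fold of saline (-0.20 ± 0.13, SD, n = 3, unadjusted p = 0.00312, limma adjusted p = 0.141). Butyrate-morphine stood at 1.14-fold of morphine (95% interval 1.03 to 1.25, unadjusted p = 0.0127, adjusted p = 0.928), the lowest p of the 35 genes in that comparison.

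Scn2b was at 0.13, 0.16 and 0.079 in butyrate-morphine arrays, above all saline arrays (-0.069 to 0.069), and at 0.057, -0.003 and 0.16 in morphine arrays. It averaged 1.09-fold and 1.05-fold of saline (adjusted p = 0.333 and 0.679). Scn3b was at 0.081, 0.008 and 0.11 in butyrate-morphine arrays and at 0.031, -0.056 and -0.031 in morphine arrays, against -0.092 to 0.092 in saline (butyrate-morphine over morphine 1.06, 95% interval 0.964 to 1.17).

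**Figure D3:**
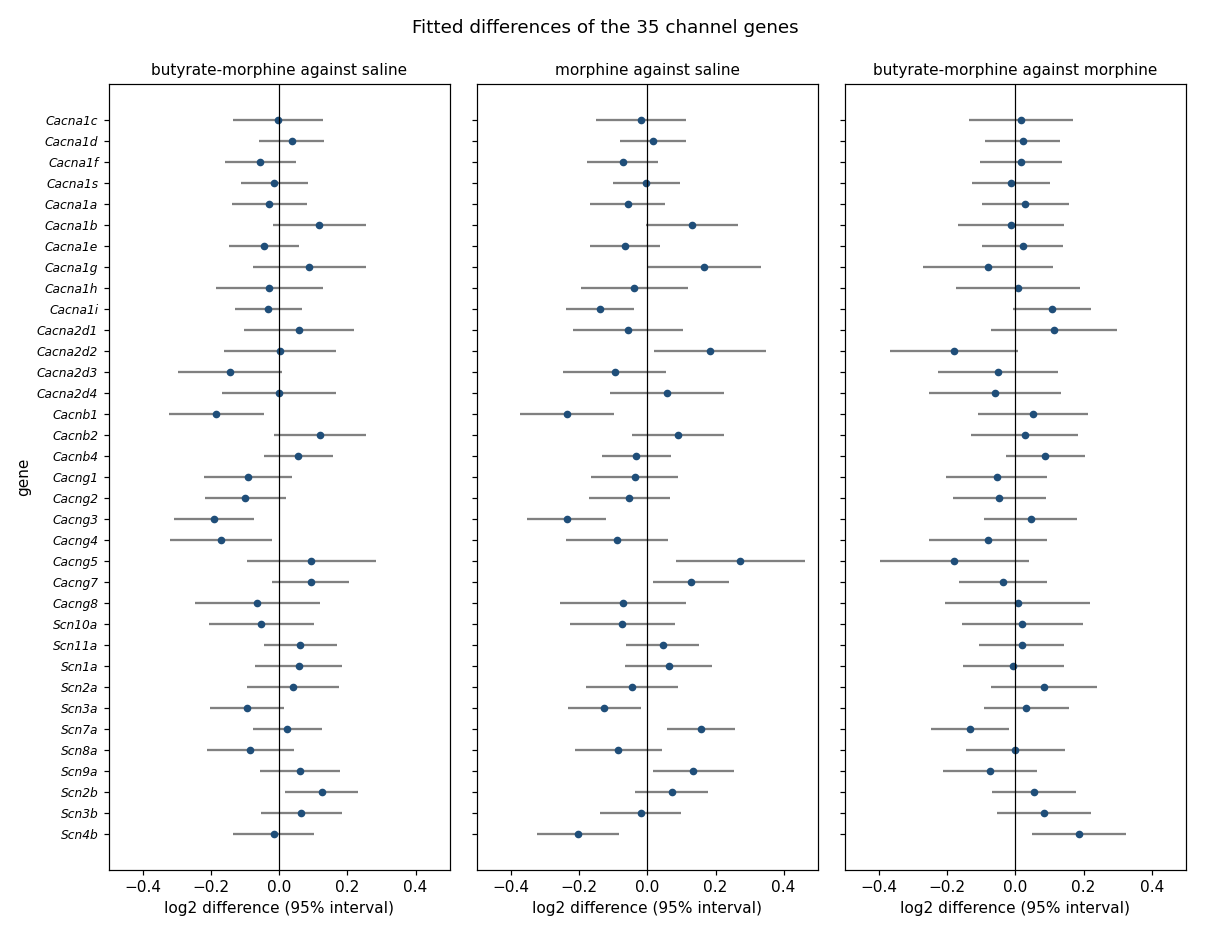
Fitted log2 difference (points) with its 95% interval (lines) for each of the 35 channel genes in the comparisons butyrate-morphine against saline, morphine against saline and butyrate-morphine against morphine. Points stay between -0.24 and 0.27, and the interval of Cacng3 is clear of 0 against saline in both morphine groups but includes 0 between them.

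With butyrate-morphine against saline, 0 of the 35 genes passed the limma test, where 0.843% of all genes passed (134 higher and 34 lower). An unadjusted p under 0.05 was seen for 4 of them (11.4%), beside 12.1% of all genes. The arrays did not overlap saline for 2 genes on the higher side and 5 on the lower, together 20% of the channel genes. Over all genes it was 11.7%, with 7.1% on the higher side and 4.55% on the lower. The range of the mirrored saline values can be too narrow, here and with morphine below, for all genes as for these. Their median difference was -0.004, beside 0.006 over all genes.

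With morphine against saline, 0 of the 35 genes passed the limma test too, where 0.757% of all genes passed (99 higher and 52 lower). An unadjusted p under 0.05 was seen for 11 (31.4%), with 6 higher and 5 lower, beside 11.3% of all genes (5% higher and 6.31% lower). Restricted to genes of the brighter class it was 7 of 22 (31.8%), beside 15.4%. Arrays did not overlap saline for 3 genes on the higher side and 4 on the lower (20%), beside 8.2% of all genes (3.84% higher and 4.35% lower). The median difference was -0.037, beside -0.004 over all genes, and within the brighter class -0.057, beside -0.016. These shares are descriptions and were not tested. Without morphine array 1 the same test called 4 channel genes, namely Cacnb1 (-0.315, adjusted p = 0.0265), Cacng3 (-0.29, 0.03), Cacng5 (0.40, 0.0175) and Scn4b (-0.28, 0.0192). Of all 19935 genes, 336 were called in that setting, beside 151 with every array kept. When the mirrored saline arrays were counted as 6 independent values, 4 genes passed with morphine (Cacng3, Scn4b, Cacnb1 and Scn7a, adjusted p = 0.0185 to 0.0494) and 1 with butyrate-morphine (Cacng3, adjusted p = 0.0499). Over all genes, 531 passed with morphine and 495 with butyrate-morphine when counted so.

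Butyrate-morphine against morphine gave 0 calls among the channel genes and 0% of all genes (2 genes, no channel gene among them, without morphine array 1). No group received butyrate without morphine. The comparison therefore cannot separate an effect of butyrate itself from a changed response to morphine. An unadjusted p under 0.05 was seen for 2 channel genes (5.71%), Scn4b and Scn7a, beside 5.18% of all genes. Arrays did not overlap for Scn4b and Cacna1i (higher with butyrate-morphine) and Scn7a (lower), or 8.57%, beside 10.7% of all genes (7.75% higher and 2.99% lower). The widest 95% bound over the 35 genes was a 1.32-fold difference, for Cacng5. Both comparisons with saline share the saline arrays.

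The spread of values differed between arrays, for the channel genes as for all genes. The SD over the 35 genes was 0.12, 0.11 and 0.091 in butyrate-morphine arrays 1 to 3 and 0.086, 0.17 and 0.17 in morphine arrays 1 to 3, against 0.048 to 0.063 in saline arrays. Over all genes it was 0.12, 0.13 and 0.11 in butyrate-morphine arrays and 0.12, 0.15 and 0.135 in morphine arrays, against 0.050 to 0.083 in saline arrays, so morphine arrays 2 and 3 were the widest there too. The saline SD lacks any difference between mirror pairs, so it is not on a par with the others. All 3 arrays had the same sign for 19 of the 35 genes with butyrate-morphine (54.3%, beside 48.9% of all genes) and for 13 with morphine (37.1%, beside 36.2%). In all 6 arrays of the morphine groups, Cacna1b and Cacng7 were above the saline mean, and Cacnb1, Cacng3, Scn3a, Scn4b and Scn10a were below it, together 20% of the channel genes beside 18.6% of all genes.

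Markers of other cells also differed between those arrays. Markers of thalamic and septal neurons (9 measured, 0 called) averaged 0.47, -0.075 and 0.21 in butyrate-morphine arrays and 0.091, 0.51 and 0.61 in morphine arrays, against -0.053 to 0.053 in saline. Among channel genes looked up after their values were seen, Cacng5, Cacna2d2 and Scn9a were likewise highest in morphine array 2 or 3. Also highest in either of these were Cacna1g, Cacna2d4, Cacng1, Cacng7, Scn7a and Scn11a. Markers of cortical excitatory neurons (8 measured, 0 called) averaged -0.011, 0.13 and 0.029 with butyrate-morphine and 0.145, -0.58 and -0.18 with morphine, against -0.035 to 0.035 in saline. Cacng3, Cacnb1, Cacna2d1 and Scn2a, also looked up after their values were seen, were likewise lowest in morphine array 2. So were Cacna1a, Cacna1e, Cacnb4 and Scn8a. How many of all genes were highest or lowest in these arrays was not counted. Cacng3 and Cacnb1 were also below all saline arrays in morphine array 1 and every butyrate-morphine array. The cortical markers averaged -0.011 to 0.145 in those arrays.

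Striatal projection neuron markers (13 measured) averaged -0.091, -0.036 and -0.027 with butyrate-morphine and -0.14, -0.165 and -0.20 with morphine, against -0.054 to 0.054 in saline, and Bcl11b fell by 0.29 with morphine (adjusted p = 0.0161). Scn4b was at -0.054, -0.26 and -0.295 in the same morphine arrays. In array 1 Scn4b was within the saline range, and the markers averaged -0.14. Choroid plexus markers (10 measured) averaged 0.80 to 1.08 with butyrate-morphine (8 rose) and 1.11 to 1.335 with morphine (9 rose), against -0.11 to 0.11 in saline. Endothelial markers (9 measured) fell for 2 genes with butyrate-morphine and 4 with morphine, and microglial markers (8 measured) for 2 genes in each. Of the 9 astrocyte markers measured, 0 passed with butyrate-morphine and 1 with morphine, where Gjb6 rose by 0.41 (adjusted p = 0.026). The astrocyte list's median with morphine was 0.047, and Slc1a2, Aldh1l1 and S100b were at -0.079, -0.064 and -0.055. The part of any of these in the channel values was not tested.

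**Figure D4:**
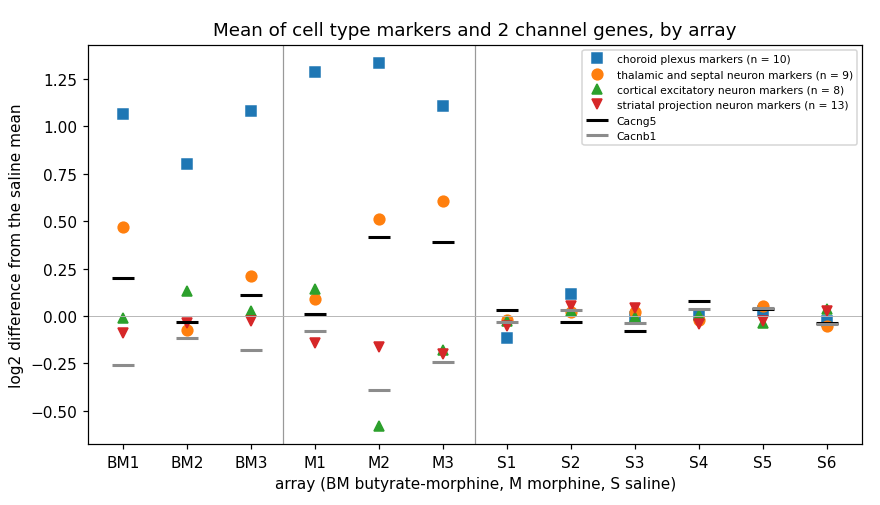
Mean log2 difference from the saline mean of 4 marker lists, with Cacng5 and Cacnb1 as dashes, in each array (BM butyrate-morphine, M morphine, S saline). Cacng5 is high in M2 and M3, where the thalamic and septal markers average 0.51 and 0.61.

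Genes of proteins that anchor, bind or act downstream of these channels were read from lists of 75, of which 68 were measured. With butyrate-morphine against saline 1 rose and 0 fell, and with morphine against saline 1 rose and 0 fell, beside 0.843% and 0.757% of all genes, and butyrate-morphine against morphine gave 0 calls, as for all genes (0%). An unadjusted p under 0.05 was seen for 8.82%, 22.1% and 7.35% of the 68 in these comparisons, beside 12.1%, 11.3% and 5.18% of all genes. The called gene was Pkp2 in both comparisons with saline. It encodes plakophilin, a desmosomal protein that binds the cardiac sodium channel complex. Pkp2 was at 0.66, 0.70 and 0.34 in butyrate-morphine arrays and at 0.53, 0.60 and 0.54 in morphine arrays, against -0.15 to 0.15 in saline arrays. No array of the morphine groups reached down to saline (1.48-fold and 1.47-fold, adjusted p = 0.0115 and 0.0141). The choroid plexus markers given above were higher in the same arrays, and their order differed among the butyrate-morphine arrays. They averaged 1.08 in array 3, where Pkp2 was lowest, and 0.80 in array 2, where it was highest. Among morphine arrays both were highest in array 2. Their part in Pkp2 was not tested.

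By class, calls numbered 1 of 15 for sodium channel anchoring and trafficking in each comparison with saline, 0 of 26 for calcium channel binding, 0 of 10 for calcium-dependent kinases and phosphatases and 0 of 17 for other cation leak and calcium entry. Between the morphine groups Rem2, which encodes a small GTPase that inhibits calcium channels, had the lowest p. It was at 0.12, 0.21 and 0.31 in butyrate-morphine arrays and at -0.26, -0.23 and -0.099 in morphine arrays, and these groups did not overlap. Their ratio was 1.33-fold (unadjusted p = 0.000704, adjusted p = 0.873), and saline arrays spanned -0.19 to 0.19. The store-operated calcium channel gene Orai2 was next, at a log2 difference of 0.26 (adjusted p = 0.905).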

How the data were processed

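Values are those the authors deposited, a table of 28815 rows taken here as log2 differences from a baseline. How they were background-corrected, normalized and summarised, their log base, and the baseline of the morphine and butyrate-morphine arrays were not given in the sources used here. Saline mirror pairs sum to 0 within 1e-06 in every row. Gene symbols came from the platform's annotation table, which gives a single one for 21780 rows, several for 1605 and none for 5430. Each gene is the mean of its probe sets.

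The fit used lmFit and eBayes of limma 3.58.1 (R 4.3.3) over 19935 genes on all 12 arrays, with a mean for each saline pair and each other group, so that each mirror pair adds 1 degree of freedom (7 residual, 4.45 prior). P-values were adjusted by Benjamini-Hochberg over all genes, with a threshold of 0.05. The number of arrays limits the precision: the median 95% interval of the channel genes against saline reached 0.13 to either side. The procedure was tested on simulated data, with independent arrays and the mean of all saline arrays as the baseline. The true baseline is not given, so the simulation cannot speak to a different one. Named genes are the 8 with the lowest p in each comparison and the farthest from saline in each subunit class, and other members are given for their role. Members, lists and tests were chosen with earlier results of these data known. Alternatives are in the closing section.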

Additional observations from a re-analysis of the deposited data

How the results depend on the processing

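Channel genes were called under 3 alternatives. With the saline arrays as 6 independent values, channel genes called numbered 1 (butyrate-morphine against saline) and 4 (morphine against saline), and all genes called numbered 495 and 531. At an adjusted p under 0.1, Cacng3 was the 1 channel gene called with morphine. Leaving out each replicate in turn, or each saline mirror pair, gave 0 to 4 channel genes with morphine (4 without morphine array 1) and 0 in the other comparisons. Partner genes called were 0 to 1 (butyrate-morphine against saline) and 0 to 6 (morphine against saline) over those settings. They were 2 with morphine with saline arrays independent, with array weights or at an adjusted p under 0.1, and 0 in both comparisons with quantile normalization, with original values of 8 or more or at an adjusted p under 0.01. The cause was not tested. The median channel gene difference between the morphine groups was -0.01 with quantile normalization and -0.017 to 0.029 with a replicate left out. All genes called with butyrate-morphine and with morphine against saline were 46 and 25 with quantile normalization, 67 and 62 with trend and robust variance, 69 and 64 at an adjusted p under 0.01, 276 and 307 under 0.1, and 37 and 72 with original values of 8 or more. They were 257 with array weights for butyrate-morphine. With a replicate left out they ran from 74 to 195 and from 79 to 336, and from 0 to 2 between the morphine groups. The deviations of same-numbered morphine and butyrate-morphine arrays correlated at -0.12, -0.27 and -0.20, and those of differently numbered arrays at -0.13 to 0.28. Deviations from a mean of 3 arrays sum to 0, so these values cannot settle whether the numbers pair the arrays. With the replicate number as a block, 0 channel genes were called, partner genes called were 0 with butyrate-morphine, and all genes called were 51 and 54. Values of the named channel genes kept their direction and side of the threshold in 516 cases and came to pass it in 9.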
